A study of Rattus norvegicus with 10 samples.

Results

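Vip and 9 genes of the circadian clock and its pacemaker (Grp, Nms, Per2, Per3, Nr1d1, Nr1d2, Dbp, Arntl and Cry1) were followed through hypothalamic RNA of 10 male Wistar rats. The members are every probe set that the annotation of the rat array assigns to one of these genes alone. They numbered 13 probe sets of 31042 and covered 9 of the 10 genes. Arntl carries the symbol Bmal1 on the array and was matched by its gene identifier. No probe set named Nms, which encodes neuromedin S, and no value is given for it.

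The C group (5 rats, Chow 1 to Chow 5) ate solid chow for 8 days and the P group (5 rats, Powder 1 to Powder 5) ate powdered feed for 8 days. Rats of both groups had first been on powder for 2 days from 3 weeks of age and were 4 weeks old at the end. Food and water were freely available. The study states a 12 h light and 12 h dark cycle for the rats of its heart rate recording, which it describes as kept under the same conditions. The comparison asks what chewing solid food changes in the hypothalamus of weaning-stage rats. Each rat gave 1 array of whole hypothalamus, in which fewer cells of a type and less RNA per cell cannot be told apart, and the hour of dissection is not given in the sources used here.

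In the mammalian clock, a pair of activators that includes the Arntl product switches on the Per and Cry genes through E-box sequences, and PER and CRY proteins then shut the activators down. REV-ERB proteins, the products of Nr1d1 and Nr1d2, repress Arntl in a second loop, and DBP drives genes through D-box sequences. The master clock of the body lies in the suprachiasmatic nucleus of the hypothalamus, where light-receiving neurons make vasoactive intestinal peptide (VIP) and gastrin-releasing peptide (GRP), and VIP keeps the neurons of the nucleus in step. Vip is also made by interneurons of the cerebral cortex.

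Promoter sequence is shown for the genes on which the results turn. RefSeq windows on the GRCr8 build, 250 bases before to 50 bases after a start site, were at hand for 9 of the 10 members (10 windows, 2 of them for Nr1d1), and Cry1 is named only. Both strands were searched for the E-box CACGTG, the D-box TTATGTAA, the core TAGGTCA that ROR and REV-ERB proteins bind, the cAMP response element TGACGTCA and its short form TGACG, which is also the first part of the full element. Vip lies on chromosome 1, and its window, chr1:44470230-44470529 on the plus strand, held a short form at position -97, counted from the start site. Per2 lies on chromosome 9, and its window, chr9:99496944-99497243 on the minus strand, held a D-box at position -192 and a short form at position 39. Capitals mark these matches in both windows.
Vip: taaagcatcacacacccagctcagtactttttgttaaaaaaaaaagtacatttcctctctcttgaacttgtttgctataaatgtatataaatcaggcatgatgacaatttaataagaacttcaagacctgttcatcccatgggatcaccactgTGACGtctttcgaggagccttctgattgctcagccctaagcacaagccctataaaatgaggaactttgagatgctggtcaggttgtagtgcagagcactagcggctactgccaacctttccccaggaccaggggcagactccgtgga
Per2: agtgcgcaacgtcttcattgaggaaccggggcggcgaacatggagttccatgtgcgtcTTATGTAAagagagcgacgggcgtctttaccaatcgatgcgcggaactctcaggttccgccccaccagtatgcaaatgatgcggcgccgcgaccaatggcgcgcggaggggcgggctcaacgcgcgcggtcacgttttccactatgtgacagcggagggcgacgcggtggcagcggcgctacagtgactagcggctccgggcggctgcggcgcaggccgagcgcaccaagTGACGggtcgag

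The D-box stood in 0.893% of all 33469 promoter windows of this length and the short form in 21.2%. The E-box CACGTG, present in 6.42% of windows, was found in 1 member, in the second window of Nr1d1 at position -191. Other forms of the E-box were not searched for, in Per2 or any other member. The core of ROR and REV-ERB proteins, present in 2.63% of windows, was found in 1 member, Arntl, at position -16. Both are shown with their surroundings because they are the elements of the 2 loops described above. The stretch of Nr1d1 is chr10:84229628-84229657 on the minus strand and that of Arntl is chr1:176766300-176766330 on the plus strand, with the motif in capitals.
Nr1d1: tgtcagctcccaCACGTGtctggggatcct
Arntl: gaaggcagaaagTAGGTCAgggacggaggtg
The short form was also present for Grp, Per3 and Nr1d2, and the full cAMP response element, present in 1.83% of windows, was in 0 of the 9 members. A match is a run of letters only and was not tested as a site.

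Values are log2 signals summarized by the authors with factor analysis (FARMS), which leaves a probe set almost flat where its probes share no signal. A probe set was called varying when its standard deviation (SD) over the 10 rats was above 0.1 and flat when it was below 0.001. Of the 13 member probe sets 2 were varying, against 4.48% of all probe sets, and 9 were flat, against 92.6% of all. The varying ones belonged to Vip (SD 0.70) and Per2 (SD 0.18). Nr1d2 (SD 0.0758) and Dbp (SD 0.0528), both below the limit of 0.1, lay in between. A flat probe set carries no measurement of a difference, and neither absence nor constancy of the RNA can be read from it.

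**Figure D1:**
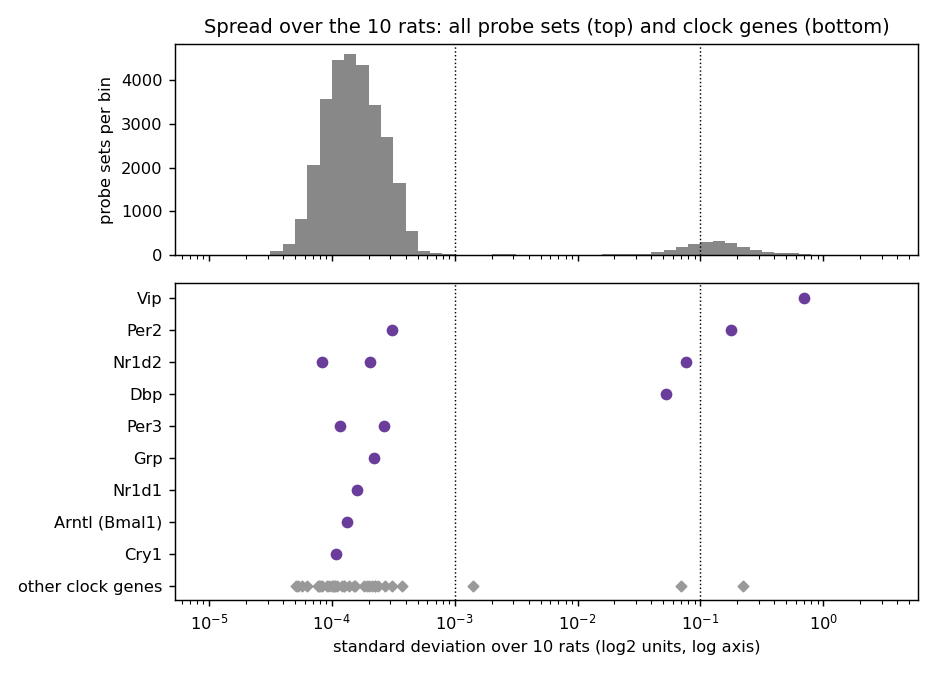
Standard deviation over the 10 rats in log2 units, on a logarithmic axis, for all 31042 probe sets (top, number of probe sets per bin) and for each probe set of the clock genes (bottom, 1 point per probe set). Dotted lines mark the limits 0.001 and 0.1, and Vip and Per2 are the 2 members to the right of 0.1.

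Chow 1, Chow 3 and Chow 5 had the highest Vip signals of the 10 rats, and the remaining 2 rats of the C group lay among the P group. Vip read 8.56, 7.02, 8.40, 7.04 and 8.17 in Chow 1 to Chow 5, against 6.40, 7.34, 7.66, 7.01 and 7.77 in Powder 1 to Powder 5. Thus 3 of 5 C rats were above every P rat, the groups overlapped, and no rat of the C group fell between 7.04 and 8.17. The signal spanned 2.17 on the log2 scale, a 4.49-fold range between Chow 1 and Powder 1.

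Vip averaged 7.84 ± 0.75 in C rats, against 7.24 ± 0.55 in P rats (SD, n = 5 each). The difference, C group minus P group, was 0.60 (SE 0.42, 95% confidence interval -0.36 to 1.57), which is 1.52-fold on the linear scale, with a two-sided exact permutation p of 0.167. Limma gave an adjusted p of 0.9995 over all probe sets, and it called 0 of the 31042 probe sets (0%), with 1100 at an unadjusted p below 0.05. The difference was smaller than the SD within the C group (0.75) and somewhat larger than that within the P group (0.55).

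Rank products, the method of the study, order the fold changes over the 25 pairings of C rats with P rats, and called a probe set at a false discovery rate (FDR) below 0.05. By this method Vip was called higher in the C group, at an FDR that 100 permutations put at 0, as 1 of 297 probe sets in that direction (0.957% of all), and Per2 was called lower at an FDR of 0.037, as 1 of 253 (0.815%). Of the 13 member probe sets 1 was called in each direction. The call for Vip held when any of the 10 rats was left out. It was lost when differences were divided by the within-group SD (FDR 0.976) and when only varying probe sets were ranked (FDR 0.135).

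Ranked from high to low, Vip ran through Chow 1, Chow 3, Chow 5, Powder 5, Powder 3, Powder 2, Chow 4, Chow 2, Powder 4 and Powder 1. Neighbors were 0.00488 to 0.62 apart, the widest step being that between Powder 4 and Powder 1. With 1 array per rat, no error of a single rat was available to separate neighbors. Chow 4, Chow 2 and Powder 4 followed each other at steps of 0.02 and 0.00488.

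**Figure D2:**
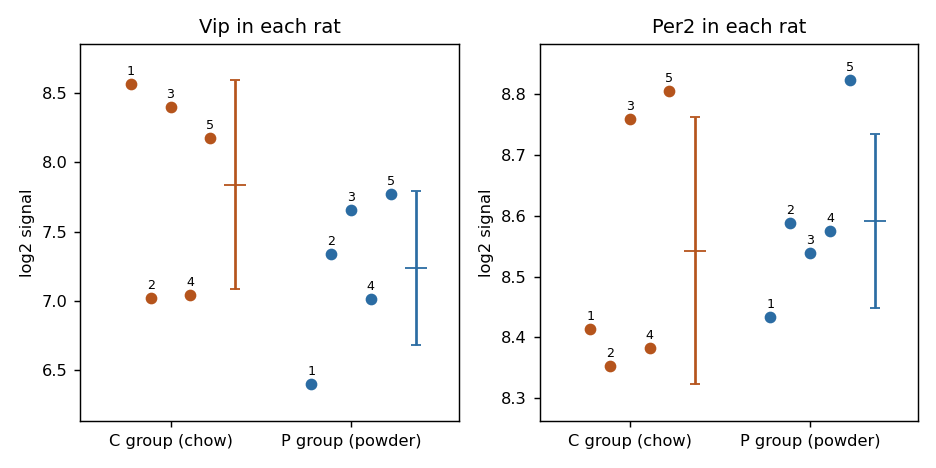
Log2 signal of Vip (left) and Per2 (right) in each rat, C group left of P group. Numbers are the rats, lines are group means and bars span 1 SD on either side (5 rats per group). Chow 1 is the highest rat for Vip and among the lowest for Per2.

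Per2, which encodes a repressor of the core loop and is induced by light in the suprachiasmatic nucleus, was highest in Powder 5, Chow 5 and Chow 3. Its varying probe set read 8.41, 8.35, 8.76, 8.38 and 8.81 in Chow 1 to Chow 5, against 8.43, 8.59, 8.54, 8.57 and 8.82 in Powder 1 to Powder 5. Chow 1, Chow 2 and Chow 4 were below every P rat, and Chow 3 and Chow 5 were above all P rats but Powder 5. The mean of C rats was 8.54 ± 0.22, against 8.59 ± 0.14 in P rats (SD, n = 5 each), a difference of -0.05 (SE 0.12, 95% confidence interval -0.32 to 0.22, exact permutation p = 0.659). The rank product call of a lower level held in 5 of 10 fits that left out a rat, and the sign of the difference changed to 0.01 without Powder 5. After division of differences by the within-group SD, Per2 was not called lower (FDR 0.977). The other probe set of Per2 was flat, with a mean of 7.44 and an SD of 0.000307.

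Nr1d2, the beta form of REV-ERB, read 10.09, 10.16, 10.11, 10.01 and 10.17 in Chow 1 to Chow 5, against 10.02, 10.11, 10.05, 10.01 and 10.24 in Powder 1 to Powder 5. Powder 5 was the highest rat and the groups overlapped throughout (difference 0.02, SE 0.05, exact permutation p = 0.651). Dbp, the D-box activator whose own gene is driven by the clock, read 9.04, 9.07, 9.11, 9.07 and 9.18 in Chow 1 to Chow 5, against 8.99, 9.09, 9.09, 9.15 and 9.12 in Powder 1 to Powder 5. Its whole range was 0.19, with Powder 1 lowest and Chow 5 highest (difference 0.01, SE 0.04, exact permutation p = 0.841). Neither gene was called by limma or by rank products.

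The remaining members with a probe set, Grp, Per3, Nr1d1, Arntl and Cry1, were flat in all their probe sets. The activator gene Arntl had a mean of 7.68 with an SD of 0.000133, and the repressor gene Cry1 had a mean of 8.46 with an SD of 0.000107. Both probe sets of Per3, a paralog of Per2, were flat at means of 8.15 and 6.79, and Nr1d1, the alpha form of REV-ERB, was flat at 7.57. Grp, the second peptide of light-receiving suprachiasmatic neurons, was flat at 7.09. The further 2 probe sets of Nr1d2 were flat at 6.73 and 9.49, so within 1 gene the summarization returned a signal from 1 probe set and none from the others. Across all 13 member probe sets, 0 had groups without overlap, a pattern seen in 0.432% of all probe sets.

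Whether the clock genes followed Vip from rat to rat was asked with 1 relation per gene over the 10 rats. In all, 19 relations with Vip were computed, for Per2, Nr1d2, Dbp, 7 listed genes and 9 further genes chosen for their r. Each probe set was also fitted on the Vip signal with limma, which called 0 of 31041 (0%, with 1020 at an unadjusted p below 0.05), and the smallest adjusted p was 0.9998. Vip levels were graded rather than split into separate clusters, so 1 coefficient was taken over all rats.

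Per2 had a Pearson r of 0.51 with Vip (permutation p = 0.134) and a Spearman rho of 0.41 (permutation p = 0.245), which did not pass the test. Of the 1390 varying probe sets other than Vip, 130 (9.35%) had an r at least as high, counting that of Per2 itself. The value turned on Chow 1, the rat with the highest Vip signal and the eighth of 10 for Per2. Without Chow 1 the r was 0.81 and rho 0.72, without the 2 rats farthest from the median of Vip (Chow 1 and Powder 1) it was 0.82, and over the 10 fits that left out a rat it lay between 0.41 and 0.81. In the 9 rats left without Chow 1, no varying probe set other than that of Per2 reached its r, while limma on the same 9 rats gave an unadjusted p of 0.00541 and an adjusted p of 0.9997. Chow 1 was singled out here after its values were seen. Within the C group r was 0.60, within the P group it was 0.75, and on the deviations from both group means it was 0.65.

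**Figure D3:**
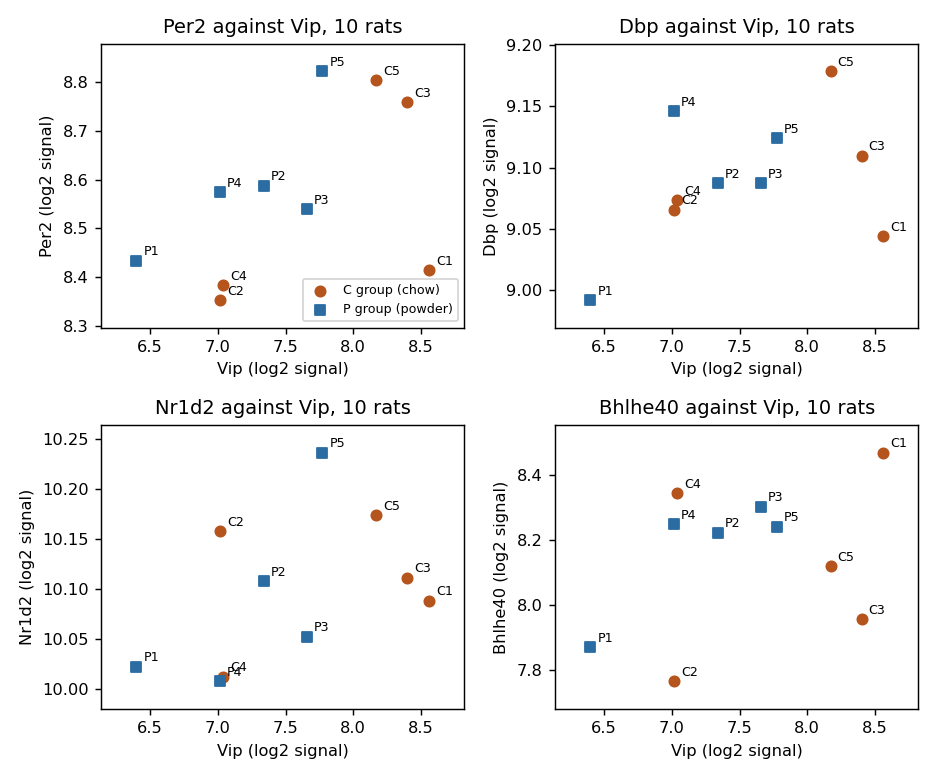
Log2 signal of Per2, Dbp, Nr1d2 and Bhlhe40 against that of Vip, 1 point per rat (circles, C group; squares, P group). For Per2, 9 rats lie along a rising band and C1 (Chow 1) lies below it.

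For Nr1d2 the r with Vip was 0.46 (permutation p = 0.182) and rho 0.53 (permutation p = 0.121), with 0.47 after leaving out Chow 1 and Powder 1. For Dbp the r was 0.41 (permutation p = 0.235) and rho 0.26 (permutation p = 0.470), with 0.48 after leaving out the same rats. The r of Dbp was 0.71 without Chow 1 and 0.06 without Powder 1, which was lowest for both genes, so it rested on single rats. The r of Nr1d2 moved less, between 0.34 and 0.57.

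Per2, Nr1d2 and Dbp were also set against each other, in 3 relations. Per2 and Dbp had an r of 0.74 (permutation p = 0.0126) and a rho of 0.77 (permutation p = 0.0129), with r at 0.59 after leaving out Chow 5 and Powder 5, the rats farthest from the median of Per2. The fit of all probe sets on Per2 gave an adjusted p of 0.700 for Dbp. It called 0 of 31041 probe sets (0%), with 2134 at an unadjusted p below 0.05. Per2 and Nr1d2 had an r of 0.59 (permutation p = 0.0756, adjusted p 0.737) and a rho of 0.50 (permutation p = 0.145), with r at 0.08 without Chow 5 and Powder 5. Nr1d2 and Dbp had an r of 0.40 (permutation p = 0.250) and a rho of 0.30 (permutation p = 0.406), with r at 0.65 without Powder 4 and Powder 5. Without Chow 1 the r of Per2 with Dbp was 0.72, so that pair, unlike Per2 with Vip, did not turn on that rat.

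**Figure D4:**
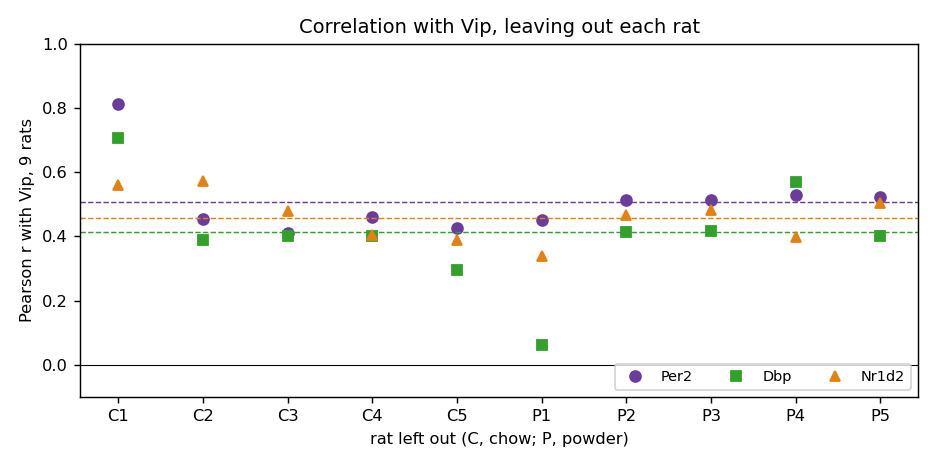
Pearson r of Per2, Dbp and Nr1d2 with Vip when each rat in turn is left out (points, 9 rats each) and over all 10 rats (dashed lines). Leaving out C1 (Chow 1) moves Per2 to 0.81 and Dbp to 0.71, and leaving out P1 (Powder 1) moves Dbp to 0.06.

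Among 20 further clock genes, 16 had a probe set, and of their 34 probe sets 1 was varying, 2 lay in between and 31 were flat. The activator gene Clock (4 probe sets) and the light-induced repressor gene Per1 were among the 14 genes flat in every probe set. The varying one was Bhlhe40, a repressor that acts on E-boxes, which read 8.47, 7.76, 7.96, 8.34 and 8.12 in Chow 1 to Chow 5, against 7.87, 8.22, 8.30, 8.25 and 8.24 in Powder 1 to Powder 5. Chow 2 was the lowest rat, Chow 1 the highest, and the mean difference was -0.05 (SE 0.15, exact permutation p = 0.762). Its r with Vip was 0.38 (permutation p = 0.272) and rho 0.32 (permutation p = 0.366), and r was -0.15 without Chow 1 and Powder 1. Hlf, a relative of Dbp, lay in between (SD 0.0699, r with Vip 0.44). Rank products called 0 of these genes in either direction.

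Of 11 genes driven by the clock, all with a probe set, 9 were flat in every probe set and Rgs16 was varying. Rgs16, a regulator of G protein signaling that cycles in the suprachiasmatic nucleus, read 8.48, 8.16, 8.28, 8.20 and 8.40 in Chow 1 to Chow 5, against 8.25, 8.18, 8.27, 8.11 and 8.26 in Powder 1 to Powder 5. The 3 rats highest for Vip were also the 3 highest for Rgs16. Its r with Vip was 0.74 (permutation p = 0.0132) and rho 0.84 (permutation p = 0.00367), with r at 0.84 without Chow 1 and Powder 1, between 0.62 and 0.89 when any rat was left out, and an adjusted p of 0.9998 by limma. The r of Rgs16 was 0.86 within the C group and 0.24 within the P group. Rank products called Rgs16 higher in the C group (difference 0.09, SE 0.07, FDR 0.0445), a call that held in 3 of 10 fits that left out a rat. This call was lost after division by the within-group SD (FDR 0.976) and with only varying probe sets ranked (FDR 0.919).

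Of 17 peptides and receptors of the suprachiasmatic nucleus, 4 were varying (Avp, Adcyap1, Sst and Gal) and 9 were flat in every probe set, among them the VIP receptor gene Vipr2 and the output peptide gene Prok2. Adcyap1, which encodes the peptide PACAP, read 9.92, 9.91, 9.98, 9.88 and 10.05 in Chow 1 to Chow 5, against 9.66, 9.97, 9.89, 9.89 and 9.89 in Powder 1 to Powder 5. Powder 1 stood below the other 9 rats, and rank products called the gene higher in the C group (difference 0.09, SE 0.06, FDR 0.0364), in 2 of 10 fits that left out a rat. Division by the within-group SD (FDR 0.976) and ranking only varying probe sets (FDR 0.919) each removed the call for Adcyap1. Its r with Vip was 0.71 (permutation p = 0.0142) and rho 0.68 (permutation p = 0.0337), with r at 0.66 without Chow 1 and Powder 1. Each array was of whole hypothalamus, so the Adcyap1 signal cannot be assigned to the suprachiasmatic nucleus.

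Avp, which encodes vasopressin and is made in the suprachiasmatic nucleus and more abundantly in neurosecretory neurons, had an r with Vip of 0.07 (permutation p = 0.835) and a rho of 0.05 (permutation p = 0.890). Sst, the somatostatin gene, ran opposite to Vip at an r of -0.72 (permutation p = 0.0160) and a rho of -0.54 (permutation p = 0.116), but r was -0.25 without Chow 1 and Powder 1. Gal, the galanin gene, had an r of -0.16 (permutation p = 0.662) and a rho of -0.22 (permutation p = 0.536), and Dlx1, a homeobox gene of inhibitory neurons, an r of -0.14 (permutation p = 0.685) and a rho of -0.09 (permutation p = 0.811). Without Chow 1 and Powder 1 these stood at -0.01 for Avp, 0.54 for Gal and 0.76 for Dlx1. Rank products called Avp (difference -0.13, SE 0.23), Dlx1 (-0.12, SE 0.07) and the substance P gene Tac1 (-0.06) lower in the C group. The calls for Avp and Dlx1 held in 6 of 10 fits that left out a rat, and the Avp difference then ran from -0.26 (without Chow 1) to -0.0027 (without Chow 3). After division by the within-group SD neither Avp nor Dlx1 was called lower (FDR 0.977 for each). Of the 9 measured suprachiasmatic transcription factors, 8 were flat and Dlx1 varied. Among the flat ones were the defining genes Six6 (mean 7.22), Six3 (6.79) and Lhx1 (7.44), and the share of the nucleus in each sample could not be followed through them.

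Among varying probe sets that name a single gene, those most like Vip over the 10 rats were Rasl11b, a small RAS-like GTPase (r 0.81, permutation p = 0.00214), and Cck, the cholecystokinin gene (r 0.78, permutation p = 0.00226). Synm (synemin, r 0.77, permutation p = 0.0118), Erap1 (a peptide-trimming aminopeptidase, r 0.75, permutation p = 0.0104) and Ezr (ezrin, r 0.74, permutation p = 0.0129) followed. Their rho values were 0.72, 0.83, 0.77, 0.65 and 0.70 in that order (permutation p = 0.0233, 0.00458, 0.0125, 0.0494 and 0.0303), and without Chow 1 and Powder 1 their r values were 0.83, 0.71, 0.60, 0.38 and 0.49. All were chosen for a high r in these same rats, so their permutation p values do not test the relation. Cck read 9.45, 8.61, 9.07, 8.87 and 8.81 in Chow 1 to Chow 5, against 8.64, 8.76, 8.79, 8.75 and 8.85 in Powder 1 to Powder 5. Within the P group its r with Vip was 0.97, and Chow 1 was the highest of the 10 rats for both. For Rasl11b, Synm, Erap1 and Ezr the r within the P group was 0.32, 0.60, 0.93 and 0.42. Within the C group r was 0.94 for Rasl11b, 0.76 for Cck, 0.84 for Synm, 0.49 for Erap1 and 0.84 for Ezr.

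Among the same single-gene probe sets, the most opposite to Vip were Fndc3b (r -0.75, permutation p = 0.0163), the amino acid transporter gene Slc43a2 (r -0.75, permutation p = 0.01003), the synaptic complexin gene Cplx1 (r -0.73, permutation p = 0.0159), Tstd3 (r -0.73, permutation p = 0.0176) and Sst, given above. Their rho values lay between -0.83 and -0.54, and their r values without Chow 1 and Powder 1 between -0.86 and -0.25. Fndc3b, Slc43a2, Cplx1 and Tstd3 were likewise chosen for their r in these same rats, so their permutation p values do not test it. Within the P group the r of these genes was -0.30, -0.59, -0.04 and -0.54 in that order. Over all 1390 varying probe sets, including those that name several genes or none, r ran from -0.81 to 0.81 with a median of 0.01, and the adjusted p of each named gene was 0.9998.

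The varying single-gene probe sets most like Per2, members left out, were looked up after the values of Per2 had been seen. They were Rnf182, a ubiquitin ligase gene (r 0.91), Eva1a (0.81), Ncor1 (0.78), Snx10 (0.77) and Aarsd1 (0.70), with adjusted p values of 0.679 to 0.700 in the limma fit on Per2. Their permutation p for r ran from 0.00051 to 0.0116, their rho from 0.65 to 0.92 (permutation p = 0.00054 to 0.0484), and their r without Chow 5 and Powder 5 from 0.60 to 0.93. As these genes were picked for their r with Per2, the permutation p values do not test the relation. Ncor1 encodes a corepressor that REV-ERB proteins recruit. It read 7.54, 7.39, 8.45, 7.41 and 8.04 in Chow 1 to Chow 5, against 7.48, 7.39, 7.41, 7.52 and 7.88 in Powder 1 to Powder 5. Chow 3, Chow 5 and Powder 5, the 3 rats highest for Per2, were also the 3 highest for Ncor1, and the remaining rats lay between 7.39 and 7.54. Rank products called Ncor1 higher in the C group (difference 0.23, SE 0.23, FDR 0.0117), whereas Per2 was called lower. The Ncor1 call held in 8 of 10 fits that left out a rat. It was lost after division by the within-group SD (FDR 0.976).

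Markers of neighboring tissue differed between the rats, and their values stand here beside the Vip signal. The hypothalamus itself was marked by high signals of Pmch (mean 12.97), Avp (11.89) and Oxt (10.42). Pmch, the precursor of melanin-concentrating hormone, ran opposite to Vip at an r of -0.72, which is outside the 19 tested relations. Avp had an r with Vip of 0.07 and Crh, another hypothalamic gene, of -0.38, so Pmch alone does not stand for hypothalamic neurons. Of 9 measured genes of cortical and hippocampal neurons 4 were varying. The mean deviation of their 5 varying probe sets from the average of all arrays was 0.79 in Chow 1. Among the remaining 4 C rats it ran from -0.12 to -0.03, and P rats spanned -0.27 to -0.04. Rank products called 2 of these genes higher in the C group, Slc17a7 and Mef2c, against 0.957% of all probe sets, most of which were flat. The other varying probe set of Mef2c was not called (FDR 0.378). In the called probe sets Chow 1 read 8.05 for Slc17a7 and 9.77 for Mef2c, and no other rat was above 6.91 and 8.78. Chow 3 and Chow 5, with Vip signals of 8.40 and 8.17, had cortical deviations of -0.08 and -0.06. Without Chow 1 the Vip difference was 0.42 (exact permutation p = 0.325).

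All 10 measured genes of the leptomeninges, the membranes around the brain, were varying. Taken over their 16 varying probe sets, so that genes with several weigh more, the mean deviations were 0.91 in Chow 1 and 0.70 in Chow 4. They ran from -0.47 to -0.21 in Chow 2, Chow 3 and Chow 5, and P rats spanned -0.75 to 0.46. Rank products called all 10 higher in the C group, the direction of the Vip call, against 0.957% of all probe sets. As 92.6% of all probe sets were flat and all 10 genes were varying, that share is not a like background. With only varying probe sets ranked, rank products called 1 probe set higher. Ttr, the 1 varying gene of 6 measured for the choroid plexus, deviated by 1.23 in Chow 1 and 1.44 in Chow 3, with -0.88 to -0.20 in Chow 2, Chow 4 and Chow 5 and a span of -1.23 to 0.68 among P rats, and was called higher in the C group. For the anterior pituitary, 2 of 9 measured genes (Cga and Tshb) were varying, at 2.11 in Chow 4 and 0.95 in Chow 5, with -0.39 to -0.34 in Chow 1, Chow 2 and Chow 3 and a span of -0.47 to -0.31 among P rats, and both were called higher in the C group.

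The list of cortical Vip interneurons had 2 of 9 measured genes varying, which went opposite ways. Cck was called higher in the C group (difference 0.20, r with Vip 0.78), and Crh, the corticotropin-releasing hormone gene that hypothalamic neurons also express, was called lower (difference -0.18, FDR 0.00532, r with Vip -0.38). Cck was no longer called after division by the within-group SD (FDR 0.976) or with only varying probe sets ranked (FDR 0.919). Of 8 measured thalamic genes 3 were varying (Lhx9, Gbx2 and Tnnt1), with mean deviations of -0.23 to 0.09 in the C group and -0.28 to 0.51 in P rats, the highest in Powder 1, where Vip was lowest. Tnnt1 was called lower in the C group. Striatal genes, 2 of 7 of them varying, stayed between -0.08 and 0.10 in C rats and between -0.12 and 0.05 in P rats. The 6 varying genes of 11 measured for hypothalamic neurons (Pmch, Avp, Oxt, Hcrt, Trh and Crh) deviated by -0.28 in Chow 1, where Vip was highest, by -0.09 to 0.00234 in the remaining C rats, and by -0.04 to 0.24 in P rats, the highest again in Powder 1. Rank products called all 6 lower in the C group, against 0.815% of all probe sets. That share too is over mostly flat probe sets, and with only varying ones ranked 4 probe sets were called lower. Leaving out Chow 1 and Chow 4 together gave a Vip difference of 0.63 (exact permutation p = 0.232). The part of these tissues in the Vip and Per2 signals was otherwise not tested.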

How the data were processed

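Hypothalamic total RNA of 10 rats (C group and P group, 5 rats each, 1 Affymetrix rat genome array per rat) was analysed from the table that the authors deposited, in log2 units, after summarization with FARMS in R 2.7.2. The values, between 5.23 and 13.96, were used as they are. Arrays have no read depth, so precision rests on the spread between rats. The table lists 31099 probe sets. Without its 57 hybridization controls it has 31042, of which 20826 name a single gene. Limma 3.58.1 (R 4.3.3) fitted the diet, and separately the Vip signal, to all probe sets with Benjamini-Hochberg adjustment. Its adjusted p is called below 0.05. SE values are those of the unmoderated linear model. Rank products (100 permutations), exact permutation tests (252 assignments of the rats, smallest p 0.00794) and permutation tests of correlations (100000 resamples) were two-sided or per direction and written in Python 3.11.15 with numpy 2.4.6, pandas 2.3.3 and scipy 1.17.1, and checked on simulated data. The check on simulated data does not vouch for the rank product FDR in this table, where spread was very unequal and 92.6% of probe sets were flat. Rank product calls numbered 297 higher and 253 lower over all probe sets, but 1 and 4 with only varying ones ranked. The FDR values given for single genes carry this limit. Figures were drawn with matplotlib 3.10.9. By the naming rule, the 10 members and the 5 genes most like and 5 least like Vip are named, and any gene of 12 further lists with an SD above 0.1 or a call may be, of which the text names a part. Members and lists were chosen with earlier results of these data known. The lists hold 144 entries with those of the members, 133 of them with a probe set, and an older and a current symbol of 1 gene were counted once. Lists were described by counts, without a set test. Their median differences are values of flat probe sets and were not read. Alternatives were other normalizations, filters, limits and fits, and leaving out rats. The fit on Per2 and the likeness and rank product fits without Chow 1 and Chow 4 were added after the data were seen.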

Additional observations from a re-analysis of the deposited data

Results flagged for a closer look

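In 50 groups of 5 rats, the highest and lowest rat of each named gene were compared with the nearest other rat, and 5 groups had a rat set apart by more than 0.71 of the whole range. Chance gives such a rat in about 1 of 20 groups. Powder 1 stood below the other P rats for Bhlhe40, at 7.87 against 8.22 to 8.30, and for Adcyap1, at 9.66 against 9.89 to 9.97. Powder 5 stood below them for Slc43a2, at 7.79 against 7.97 to 8.03, and above them for Ncor1, at 7.88 against 7.39 to 7.52. Chow 5 stood above the other C rats for Aarsd1, at 9.34 against 8.82 to 8.95. Neither Vip nor Per2 had a rat set apart in this way in either group.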

How the results depend on the processing

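The Vip difference kept its sign under all 16 alternatives, between 0.39 (without Powder 1) and 0.81 (without Chow 2), with exact permutation p values of 0.0952 to 0.333. Limma called 0 probe sets under every alternative except without Powder 4, where it called 1 (range 0 to 1 over the rats left out). Deviations of same-numbered rats of the 2 groups correlated at -0.33 to 0.28, which cannot decide whether such rats shared more than a number. A replicate block left the Vip difference at 0.60 and the limma calls at 0. Rank products called 297 higher and 253 lower, against 128 to 292 and 148 to 244 when 1 rat was left out (the lowest without Powder 1 for higher and without Chow 1 for lower), 124 and 97 with a mean above the median, 1 and 4 with an SD above 0.1, 36 and 79 after division by the within-group SD, 56 and 92 without Chow 1 and Chow 4, and 92 and 99 at an FDR below 0.01. Member probe sets called varying numbered 4 at an SD above 0.05 and 1 above 0.2. The limma fit on Vip called 0 throughout. Signs of small values changed. Without 1 rat, differences ran from -0.11 to 0.0093 for Per2, -0.017 to 0.021 for Dbp, -0.13 to 0.046 for Bhlhe40 and -0.078 to 0.0063 for Gal, and without Chow 1 and Chow 4 they were 0.048 for Per2 and 0.041 for Gal. The r with Vip ran from -0.20 to 0.44 for Avp, -0.38 to 0.20 for Gal and -0.32 to 0.23 for Dlx1 without 1 rat, was -0.15 for Bhlhe40, -0.014 for Avp, 0.54 for Gal and 0.76 for Dlx1 without Chow 1 and Powder 1, was -0.29, 0.13 and 0.12 for Avp, Gal and Dlx1 without Chow 1 and Chow 4, and was 0.12 for Dlx1 with diet as a second term. The cause was not tested. The r of Per2, Nr1d2 and Dbp with Vip stayed positive under all 15 alternatives. Flat probe sets set the limit for Grp, Per3, Nr1d1, Arntl and Cry1, and 10 arrays limit the precision for the others.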
